A study of Rattus norvegicus with 9 samples.

Results

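The genes of the chemokine system, which are the chemokines and the receptors that bind them, were followed in RNA-Seq of rat dorsal root ganglia (DRGs), the ganglia that hold the cell bodies of sensory neurons. Members were taken by gene family from the symbols of the table. Of 20413 genes listed, 58 were members, 36 of them ligands and 22 receptors. Of the 58, 46 (30 ligands and 16 receptors) had a mean of at least 0.1 FPKM over the 9 libraries and were tested among 17187 genes. The receptor Ccr3 passed this limit only through CPIP+EA, its highest group, with a mean of 0.087 FPKM over the other 6 libraries. FPKM is a level scaled to the length of the transcript and to the mapped fragments of the library.

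All libraries came from male Sprague Dawley rats aged 8–10 weeks, whose right L4-6 DRGs were taken at day 10 after perfusion with saline, with 3 rats and 3 libraries in each of 3 groups. The CPIP (chronic post-ischemic pain) group had an O-ring closed round the right ankle for 3 h under anaesthesia and was then reperfused. The Sham group, whose labels read Con, had the same anaesthesia and a cut O-ring that left blood flow open. The CPIP+EA group had CPIP and then electroacupuncture at 100 Hz for 30 min daily over 10 days, through needles at ST36 and BL60 on both sides. No library here came from rats given EA without CPIP or needles without current, so EA and the handling that goes with it cannot be told apart. Sensory neuron markers were present throughout, with all 11 tested and a summed level of 9937 to 12620 FPKM per library.

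Chemokines are small secreted proteins that draw leukocytes along a gradient. They are grouped by the spacing of their first cysteines into CC, CXC, XC and CX3C types, and most signal through G protein-coupled receptors named after the type they bind. Atypical receptors bind the same ligands but do not couple to G proteins, and they take up or transport chemokine. In sensory ganglia, chemokines are made by neurons, glia, macrophages and vessels, and several of them are known to raise the excitability of nociceptors or to recruit macrophages after nerve injury. In whole ganglia, fewer cells of a type and less RNA per cell cannot be told apart.

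Promoters are shown for the 5 genes below because 4 of them (Ccl7, Cxcl13, Cxcl16 and Cx3cr1) are among the members with the smallest p-values between CPIP and Sham, and Ccl9 is a chemokine that the study singled out. The sequences are from RefSeq on the GRCr8 build, run from 250 bases before to 50 bases after the start of the gene, and are written 5′ to 3′ on the strand of the gene. Of the 58 members, 43 had an entry. Capitals mark matches on either strand to the kappaB consensus of NF-kappaB, to the AP-1 site TGANTCA, or to the TATA box TATAAA, and matches may overlap.

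Ccl7, chr10:67513845-67514144, plus strand: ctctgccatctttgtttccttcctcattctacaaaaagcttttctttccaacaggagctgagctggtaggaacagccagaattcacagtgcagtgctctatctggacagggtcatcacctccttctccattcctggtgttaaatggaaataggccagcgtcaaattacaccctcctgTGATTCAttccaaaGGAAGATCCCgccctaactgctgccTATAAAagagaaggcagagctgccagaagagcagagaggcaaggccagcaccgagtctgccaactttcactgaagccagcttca
Ccl9, chr10:68868828-68869127, minus strand: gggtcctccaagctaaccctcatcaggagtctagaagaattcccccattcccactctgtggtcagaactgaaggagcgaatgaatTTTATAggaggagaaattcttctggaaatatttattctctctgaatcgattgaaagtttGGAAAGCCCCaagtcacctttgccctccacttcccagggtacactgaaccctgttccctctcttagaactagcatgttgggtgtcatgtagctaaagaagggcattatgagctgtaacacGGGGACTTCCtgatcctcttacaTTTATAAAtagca
Cxcl13, chr14:13917871-13918170, minus strand: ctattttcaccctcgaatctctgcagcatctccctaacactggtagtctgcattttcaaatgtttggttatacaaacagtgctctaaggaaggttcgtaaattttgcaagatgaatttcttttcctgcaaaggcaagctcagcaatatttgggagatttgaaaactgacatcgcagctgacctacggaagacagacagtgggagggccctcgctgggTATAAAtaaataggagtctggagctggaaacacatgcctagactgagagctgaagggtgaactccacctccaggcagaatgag
Cxcl16, chr10:55669901-55670200, minus strand: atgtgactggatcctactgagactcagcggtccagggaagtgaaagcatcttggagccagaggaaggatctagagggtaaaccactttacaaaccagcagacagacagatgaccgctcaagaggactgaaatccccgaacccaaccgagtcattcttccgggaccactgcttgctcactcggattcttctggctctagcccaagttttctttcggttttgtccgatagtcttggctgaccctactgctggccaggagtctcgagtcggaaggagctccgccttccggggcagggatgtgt
Cx3cr1, chr8:128677017-128677316, minus strand: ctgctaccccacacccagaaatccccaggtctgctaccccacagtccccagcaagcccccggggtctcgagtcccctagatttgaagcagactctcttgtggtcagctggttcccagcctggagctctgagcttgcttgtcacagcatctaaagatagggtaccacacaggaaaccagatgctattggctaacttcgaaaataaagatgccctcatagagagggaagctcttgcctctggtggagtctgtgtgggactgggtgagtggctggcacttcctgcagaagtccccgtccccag

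The Ccl7 window held 1 kappaB match, 1 AP-1 match and 1 TATA match. Ccl9 held 2 kappaB and 3 TATA matches, Cxcl13 held 1 TATA match, and Cxcl16 and Cx3cr1 held none of the 3 motifs. A kappaB match was found in 9 of the 43 member promoters (20.9%), in 8 of 29 ligands and 1 of 14 receptors, beside 7.51% of all 33469 promoters. An AP-1 match was found in 7 of 43 (16.3%) beside 7.33% of all promoters, and a TATA match in 13 of 43 (30.2%) beside 14.2%. These matches describe the letters of the window only, and no readout of factor binding was part of these data.

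Levels spanned a wide range. Of the 58 members, 41 were above 0 in all 9 libraries, 8 had a mean of at least 10 FPKM, 24 a mean of at least 1 FPKM and 22 a mean from 0.1 to under 1 FPKM. The other 12 had a mean under 0.1 FPKM and were not tested, among them Cxcl2, Cxcl3, Ccl20 and Ccl22, the receptors Ccr4, Ccr6, Ccr8, Cxcr1 and Xcr1, and Ccl26, which was listed at 0 in every library. The highest single value of an untested member was 0.24 FPKM. The 8 most abundant members, Ccl2, Ccl6, Ackr1, Cxcl12, Ccl27, Cxcr4, Cxcl16 and Pf4, took 70.7% of the summed level of all members. The sum over ligands ranged from 126.0 to 206.3 FPKM and the sum over receptors from 51.5 to 68.3 FPKM, both highest in CPIP+EA library 3.

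**Figure D1:**
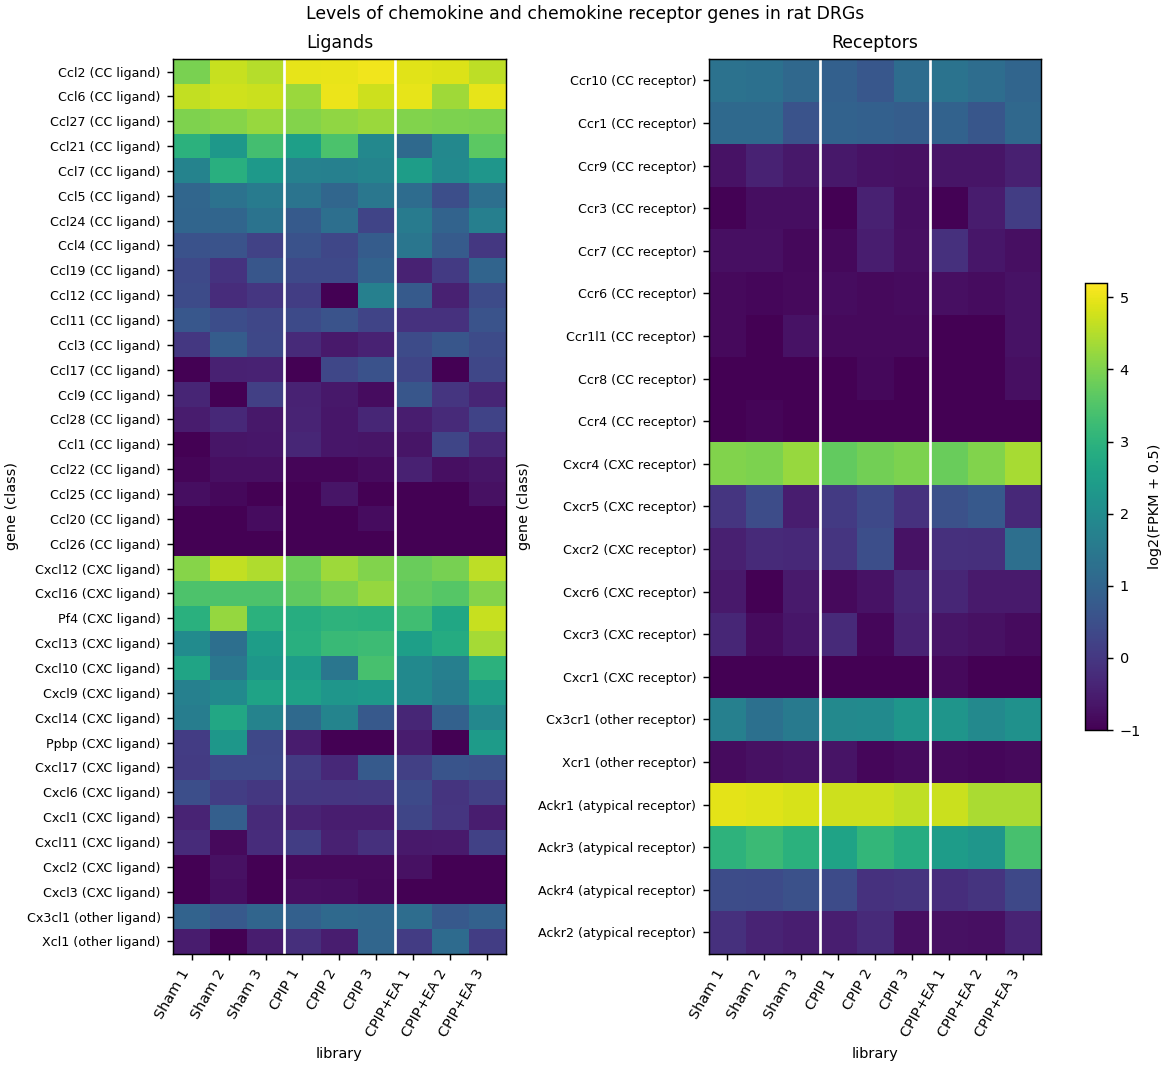
Level of 57 members in each of the 9 libraries, as log2(FPKM + 0.5) in colour, with ligands on the left and receptors on the right, ordered by class and mean level. Ccl2, Ccl6, Cxcl12, Ccl27, Cxcr4 and Ackr1 were bright in all 9 libraries, while Ppbp and Pf4 were brightest in Sham library 2 and CPIP+EA library 3.

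No member was called differentially expressed in any of the 3 comparisons. Differences were tested with limma on log2(FPKM + 0.5), and a gene was called at a Benjamini-Hochberg adjusted p under 0.01, over all genes tested, together with a change of 1.5-fold or more in either direction. Between CPIP and Sham, 0 of 46 members were called beside 0.355% of all genes. Between CPIP+EA and CPIP, 0 of 46 were called beside 0% of all genes, and between CPIP+EA and Sham 0 of 46 beside 0.483%. At an unadjusted p under 0.05, the members numbered 7 of 46 between CPIP and Sham (15.2%, beside 8.66% of all genes), 2 between CPIP+EA and CPIP (4.35%, beside 4.29%) and 7 between CPIP+EA and Sham (15.2%, beside 12.2%). The groups did not overlap for 7, 5 and 7 members, beside 15.9%, 8.23% and 16.2% of all genes, so the share of members without overlap (15.2%, 10.9% and 15.2%) was near the background in each comparison. The median log2 fold change of the members was 0.01, 0.09 and 0.07 in these comparisons, beside -0.01, 0.01 and 0.00 over all genes tested. All values that follow should be read with this: a difference named below had a small unadjusted p or stood out among the members, and did not pass the test over all genes.

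**Figure D2:**
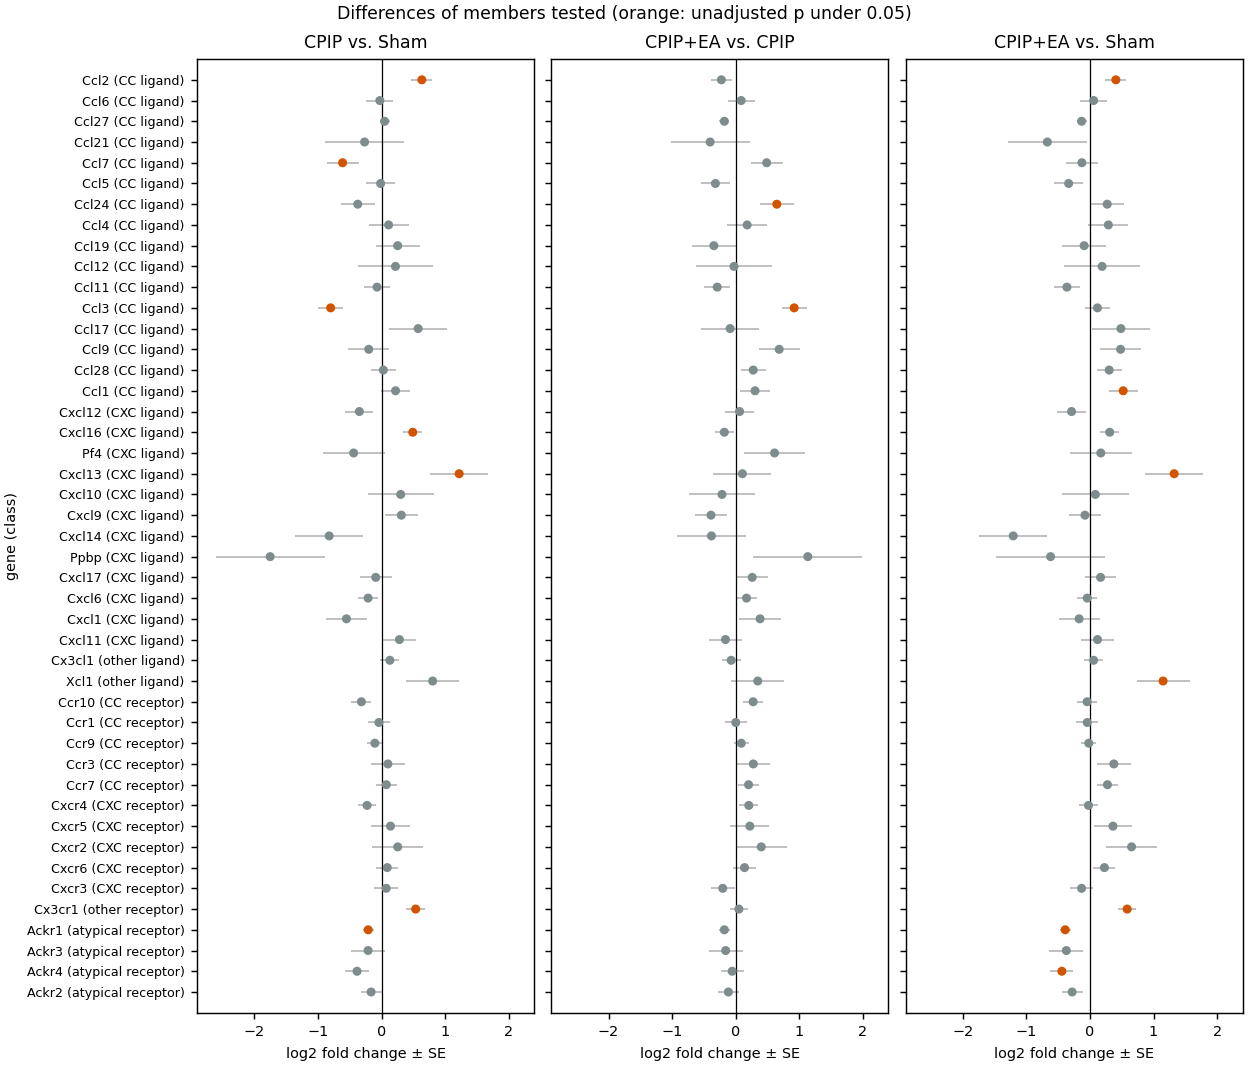
Difference of 45 members tested, as log2 fold change on the log2(FPKM + 0.5) scale with its standard error, in the 3 comparisons. Orange points had an unadjusted p under 0.05, which held for 7, 2 and 7 members, and grey points did not.

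Of the CC ligands, which act mainly on monocytes, T cells and granulocytes, 16 of 20 were tested, and their log2 fold changes between CPIP and Sham ran from -0.80 to 0.63 with 8 above and 8 below 0. The lowest and highest of these were Ccl3 and Ccl2. Ccl2 (MCP-1), the main attractant of monocytes and the most abundant member, was at 15.11, 24.98 and 22.27 FPKM in Sham, 30.99, 31.58 and 32.96 FPKM in CPIP and 30.01, 28.58 and 23.31 FPKM in CPIP+EA. Each CPIP library lay above each Sham library, and all CPIP+EA libraries lay below all CPIP libraries and overlapped Sham. CPIP differed from Sham in Ccl2 by a log2 fold change of 0.63 ± 0.17 (SE, n = 3 per group; limma adjusted p = 0.198), and CPIP+EA differed from Sham by 0.41 ± 0.17 (adjusted p = 0.37). The second of these was 0.20 without Sham library 1.

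Ccl7 (MCP-3), a close relative of Ccl2 and its immediate neighbour in the RefSeq gene order, did not follow it. It was at 2.93, 6.98 and 4.64 FPKM in Sham, 2.79, 2.74 and 2.96 FPKM in CPIP and 5.01, 3.33 and 4.30 FPKM in CPIP+EA. Sham library 1 was as low as the CPIP libraries, and all 3 CPIP+EA libraries were above all CPIP libraries. Ccl7 differed between CPIP and Sham by a log2 fold change of -0.61 ± 0.25 (SE, n = 3 per group; limma adjusted p = 0.526), and -0.34 without Sham library 2. The others of this cluster of 5 neighbouring genes were low, with means of 0.79 FPKM for Ccl11, 0.81 FPKM for Ccl12 and 0.22 FPKM for Ccl1.

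Ccl3 (MIP-1α), made by activated macrophages and neutrophils, had the smallest p of all members in the comparison of CPIP with Sham and in that of CPIP+EA with CPIP. It was at 0.50, 1.25 and 0.76 FPKM in Sham, 0.33, 0.17 and 0.25 FPKM in CPIP and 0.83, 1.08 and 0.84 FPKM in CPIP+EA. The 3 CPIP libraries were the 3 lowest of the 9, and the Sham and CPIP+EA libraries overlapped. Ccl3 had a log2 fold change of -0.80 ± 0.20 between CPIP and Sham (SE, n = 3 per group; limma adjusted p = 0.164) and 0.92 ± 0.20 between CPIP+EA and CPIP (95% interval 0.47 to 1.37; adjusted p = 0.944). Both comparisons used the same CPIP libraries. At this low level the size depends on the constant added before the logarithm, and the values were -1.37 and 1.56 with 0.1 added and -0.54 and 0.62 with 1 added. The level rests on few reads: the 7 lowest values each lay within 0.005 FPKM plus 1.5% of a whole multiple of 0.084 FPKM, and if that is the worth of 1 read, CPIP held about 4, 2 and 3 reads and the other libraries about 6 to 15. This step was fitted after the values were seen and is an estimate. Ccl3, like Ccl1, Ccl6 and Cx3cr1, overlaps a long non-coding RNA gene in the RefSeq list.

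Ccl3 belongs to a run of 5 neighbouring genes with Ccl5, Ccl9, Ccl6 and Ccl4, and these did not share its pattern in full. Ccl9 (MIP-1γ), a ligand of Ccr1, was at 0.28, 0 and 0.62 FPKM in Sham, 0.25, 0.16 and 0.08 FPKM in CPIP and 1.07, 0.47 and 0.28 FPKM in CPIP+EA. Its lowest CPIP+EA library was just above its highest CPIP library. The log2 fold change of Ccl9 between CPIP+EA and CPIP was 0.68 ± 0.32 (SE, n = 3 per group; limma adjusted p = 0.996), and 0.40 without CPIP+EA library 1. Ccl6, a ligand of Ccr1 made by macrophages, was the second most abundant member and was at 24.23, 26.26 and 25.70 FPKM in Sham, 18.78, 31.78 and 25.84 FPKM in CPIP and 31.05, 19.35 and 30.71 FPKM in CPIP+EA, so all groups overlapped. Ccl4 and Ccl5, attractants of T cells and monocytes, had group means from 0.88 to 1.31 FPKM and from 1.53 to 2.02 FPKM.

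Ccl24 (eotaxin-2), which attracts eosinophils through Ccr3, was the other member with an unadjusted p under 0.05 between CPIP+EA and CPIP. It was at 1.52, 1.54 and 2.08 FPKM in Sham, 1.18, 1.92 and 0.70 FPKM in CPIP and 2.47, 1.46 and 2.71 FPKM in CPIP+EA. CPIP+EA library 2 was below CPIP library 2, so the groups overlapped. Between these groups Ccl24 differed by a log2 fold change of 0.65 ± 0.27 (SE, n = 3 per group; limma adjusted p = 0.996), and 0.40 without CPIP library 3.

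Ccl27, known as an attractant of skin-homing T cells through Ccr10, was at 15.56, 16.39 and 18.52 FPKM in Sham, 16.14, 17.42 and 18.62 FPKM in CPIP and 15.69, 15.20 and 14.96 FPKM in CPIP+EA. All CPIP+EA libraries were below all CPIP libraries, by a small margin. In the RefSeq list the gene overlaps Il11ra1 (mean 25.2 FPKM), and whether reads were counted by strand is not given in the sources used here, so its level is uncertain. Ccr10 was at 1.64 to 2.02 FPKM in Sham, 1.11 to 1.79 FPKM in CPIP and 1.53 to 2.08 FPKM in CPIP+EA, and is uncertain in the same way, since it overlaps Cntnap1 (mean 51.6 FPKM). Ccl1, a ligand of Ccr8 made by T cells and mast cells, was at 0, 0.14 and 0.15 FPKM in Sham, 0.29, 0.15 and 0.14 FPKM in CPIP and 0.14, 0.72 and 0.29 FPKM in CPIP+EA. Its log2 fold change between CPIP+EA and Sham was 0.52 ± 0.23 (SE, n = 3 per group; limma adjusted p = 0.408), and 0.26 without CPIP+EA library 2. The 8 values of Ccl1 above 0 lay, within the tolerance used for Ccl3, at whole multiples of 0.144 FPKM. If that is 1 read, Sham held about 0, 1 and 1 reads and CPIP+EA about 1, 5 and 2.

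**Figure D3:**
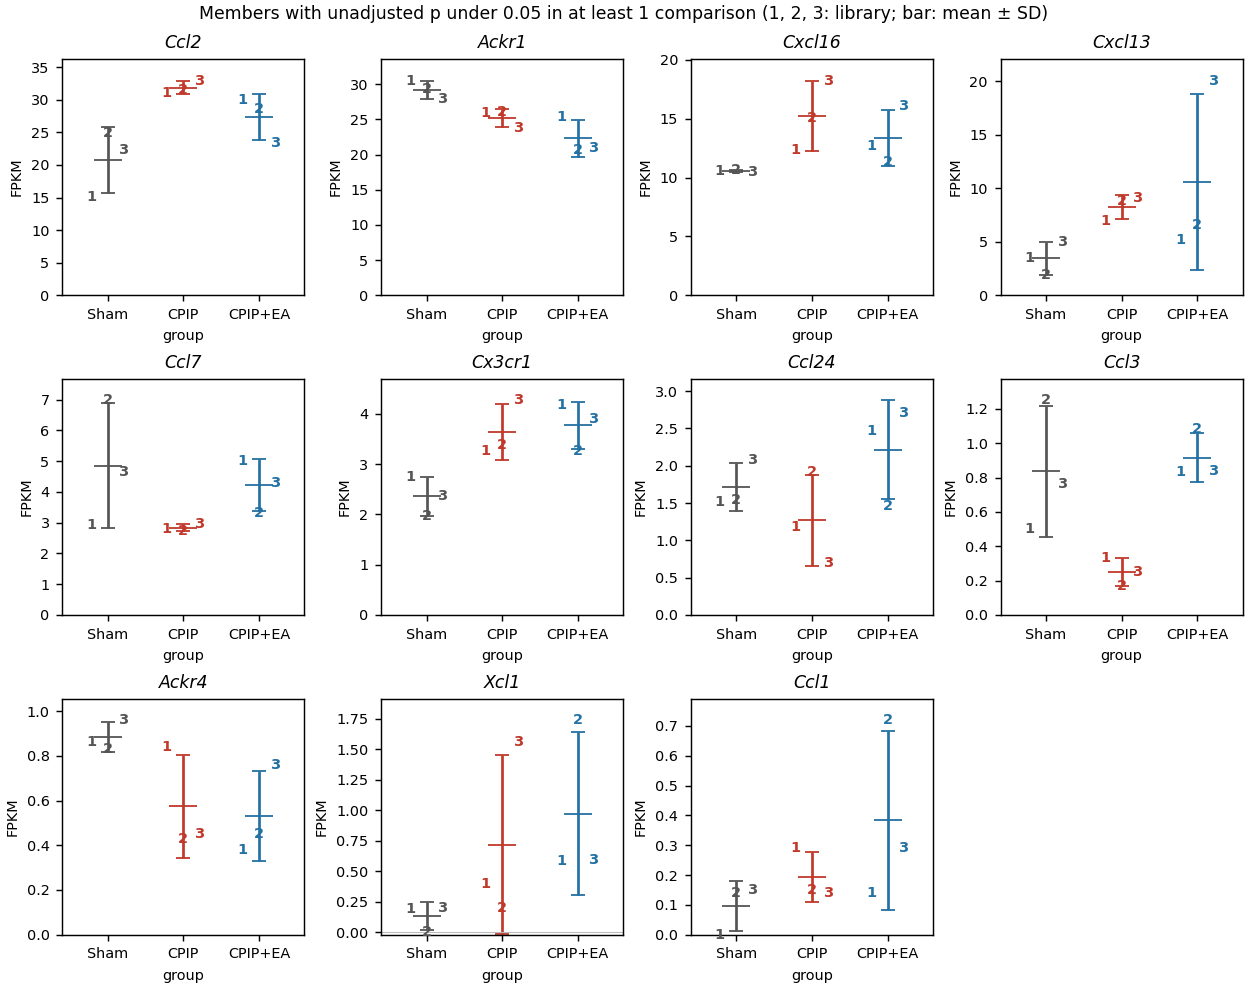
FPKM of the 11 members with an unadjusted p under 0.05 in at least 1 comparison, by group, with the numerals 1 to 3 marking the libraries and the bars the mean ± SD (n = 3). For Ccl3, all CPIP libraries were below all others, and for Ccl2, Cx3cr1, Cxcl16 and Cxcl13 all CPIP libraries were above all Sham libraries.

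Of the CXC ligands, 12 of 14 were tested, 5 with a log2 fold change above 0 and 7 below 0 between CPIP and Sham. Cxcl13, which attracts B cells through Cxcr5, had the highest log2 fold change of all members tested in that comparison. It was at 3.46, 1.91 and 4.99 FPKM in Sham, 6.98, 8.76 and 9.06 FPKM in CPIP and 5.19, 6.53 and 20.05 FPKM in CPIP+EA. Every library of both CPIP groups lay above every Sham library, and CPIP+EA library 3 stood far above the other 8. Cxcl13 had a log2 fold change of 1.22 ± 0.46 between CPIP and Sham (SE, n = 3 per group; limma adjusted p = 0.464) and 1.32 ± 0.46 between CPIP+EA and Sham (adjusted p = 0.277), and the latter was 0.76 without CPIP+EA library 3. Its receptor Cxcr5 was at 0.47, 0.85 and 0.21 FPKM in Sham, 0.53, 0.80 and 0.43 FPKM in CPIP and 0.95, 1.16 and 0.32 FPKM in CPIP+EA, with the groups overlapping, and it overlaps Bcl9l (mean 7.46 FPKM) in the RefSeq list. The summed level of 6 B cell markers, all tested and none called, was 7.10 to 18.2 FPKM in Sham, 8.38 to 15.8 FPKM in CPIP and 7.38 to 24.9 FPKM in CPIP+EA. This sum and Cxcl13 were both highest in CPIP+EA library 3. Sham library 2 had the second highest sum and the lowest Cxcl13. The part of these markers in the Cxcl13 values was not tested.

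Cxcl16, a membrane-bound chemokine and scavenger receptor of macrophages, was almost constant in Sham at 10.57, 10.64 and 10.48 FPKM. It was at 12.35, 15.09 and 18.24 FPKM in CPIP and 12.70, 11.34 and 16.04 FPKM in CPIP+EA, and all 6 of these were above all Sham libraries. CPIP and Sham differed in Cxcl16 by a log2 fold change of 0.49 ± 0.15 (SE, n = 3 per group; limma adjusted p = 0.311). Its receptor Cxcr6 was low, at 0.17, 0 and 0.18 FPKM in Sham, 0.06, 0.12 and 0.29 FPKM in CPIP and 0.29, 0.18 and 0.18 FPKM in CPIP+EA. Cxcl16 overlaps Zmynd15 (mean 0.93 FPKM) in the RefSeq list, a gene at a far lower level, while Cxcr6 overlaps Fyco1 (mean 3.27 FPKM), so its level is uncertain.

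Cxcl12 (SDF-1), which acts on Cxcr4 and is taken up by Ackr3, was at 16.41, 24.38 and 21.49 FPKM in Sham, 13.64, 19.05 and 15.69 FPKM in CPIP and 13.32, 14.76 and 23.56 FPKM in CPIP+EA. Cxcr4 was at 15.79, 15.31 and 18.49 FPKM in Sham, 12.61, 14.18 and 15.32 FPKM in CPIP and 13.21, 15.79 and 20.37 FPKM in CPIP+EA. Ligand and receptor were thus both among the 8 most abundant members, and the groups overlapped in each, for Cxcr4 by little, since the lowest Sham library was at 15.31 FPKM and the highest CPIP library at 15.32 FPKM. Ackr3, the other receptor, was at 7.61, 8.84 and 7.25 FPKM in Sham, 5.57, 8.15 and 6.69 FPKM in CPIP and 4.88, 4.32 and 9.96 FPKM in CPIP+EA. Cxcl9, Cxcl10 and Cxcl11, the interferon-induced ligands of Cxcr3, had overall means of 4.08, 4.76 and 0.33 FPKM, while Cxcr3 itself had 0.16 FPKM. Cxcl10 and Cxcl11 both overlap Art3 (mean 103.2 FPKM) in the RefSeq list, so their levels are uncertain.

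Pf4 and Ppbp, the chemokines stored in platelet granules, had their highest values in 2 single libraries of different groups. Pf4 (platelet factor 4) was at 7.18, 18.24 and 7.33 FPKM in Sham, 6.79, 7.50 and 7.25 FPKM in CPIP and 9.28, 5.94 and 25.01 FPKM in CPIP+EA. Ppbp, whose product is cut to a Cxcr2 ligand, was at 0.57, 4.35 and 0.77 FPKM in Sham, 0.19, 0 and 0 FPKM in CPIP and 0.19, 0 and 4.77 FPKM in CPIP+EA. Both genes were highest in Sham library 2 and CPIP+EA library 3, and Ppbp was lower in all CPIP libraries than in all Sham libraries. CPIP+EA exceeded CPIP by a log2 fold change of 0.61 ± 0.49 for Pf4 and 1.13 ± 0.85 for Ppbp (SE, n = 3 per group; limma adjusted p = 0.996 for each), and these were 0.05 and 0.08 without CPIP+EA library 3 and 1.04 and 1.78 without CPIP+EA library 2.

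The same 2 libraries were the highest in platelet markers. The summed level of 9 platelet and megakaryocyte markers (8 tested, none called) was 7.28 FPKM in Sham library 2 and 7.23 FPKM in CPIP+EA library 3, and 2.02 to 3.49 FPKM in the other 7. Gp9, a defining platelet glycoprotein, was at 1.01 and 0.79 FPKM in these 2 libraries and at 0 in 5 of the others. Erythroid markers, with 9 tested and none called, summed to 1396 to 4319 FPKM in Sham, 729.3 to 2828 FPKM in CPIP and 805.2 to 6318 FPKM in CPIP+EA, with the same 2 libraries highest. Their part in the Pf4 and Ppbp values was not tested.

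**Figure D4:**
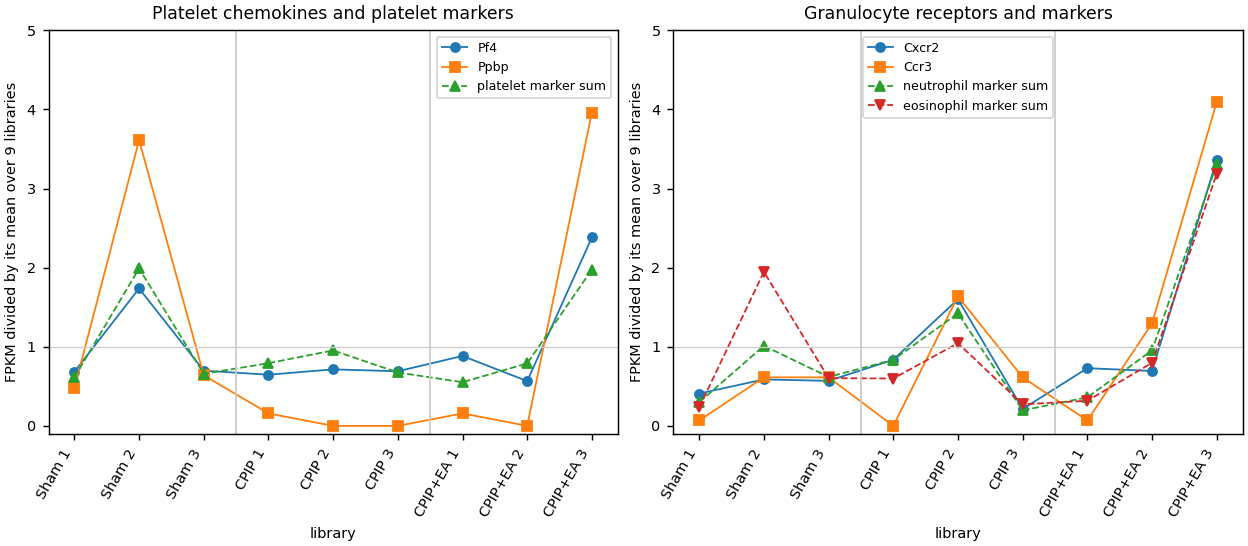
Platelet chemokines with the platelet marker sum (left), and granulocyte receptors with neutrophil and eosinophil marker sums (right), each divided by its mean over the 9 libraries. Pf4, Ppbp and the platelet markers peaked in Sham library 2 and CPIP+EA library 3, and Cxcr2, Ccr3 and both granulocyte sums were highest in CPIP+EA library 3.

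Cxcr2, the receptor that guides neutrophils, and Ccr3, that of eosinophils, were low and also highest in CPIP+EA library 3. Cxcr2 was at 0.23, 0.33 and 0.32 FPKM in Sham, 0.47, 0.90 and 0.12 FPKM in CPIP and 0.41, 0.39 and 1.89 FPKM in CPIP+EA. Ccr3 was at 0.01, 0.09 and 0.09 FPKM in Sham, 0, 0.24 and 0.09 FPKM in CPIP and 0.01, 0.19 and 0.60 FPKM in CPIP+EA. The difference of CPIP+EA from CPIP, as log2 fold change, was 0.40 ± 0.40 for Cxcr2 and 0.28 ± 0.26 for Ccr3 (SE, n = 3 per group; limma adjusted p = 0.996 for each). Without CPIP+EA library 3 the Cxcr2 value turned to -0.07. Ccr3 fell under the limit for testing without this library, with a mean of 0.09 FPKM over the other 8, and with no such limit its value turned to -0.02. Its value was 0.14 without CPIP library 1 and 0.53 without CPIP+EA library 1. Ccr3 overlaps the like gene Ccr1l1 in the RefSeq list.

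The sums of granulocyte markers were likewise highest in CPIP+EA library 3. The sum of 13 markers of neutrophils and their precursors (12 tested, none called, all 12 highest in CPIP+EA library 3) was 71.7 to 243.2 FPKM in Sham, 47.1 to 341.8 FPKM in CPIP and 86.7 to 794.4 FPKM in CPIP+EA. The sum of 5 eosinophil markers (4 tested, none called) was 9.35 to 78.2 FPKM in Sham, 10.9 to 42.0 FPKM in CPIP and 12.8 to 127.9 FPKM in CPIP+EA. Of the 4 tested, 3 were highest in CPIP+EA library 3, and Alox15 was highest in Sham library 2. The eosinophil sum was second highest in Sham library 2, where Ccr3 was at 0.09 FPKM. Their part in the Cxcr2 and Ccr3 values was not tested. Beside Ppbp, which was also highest in CPIP+EA library 3, the ligands of Cxcr2 had group means of 0.22 to 0.65 FPKM for Cxcl1, 0.50 to 0.67 FPKM for Cxcl6, 0.04 to 0.06 FPKM for Cxcl2 and 0 to 0.08 FPKM for Cxcl3.

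The study singled out Ccl3, Ccl9, Ccl24, Pf4, Ppbp, Cxcr2 and Ccr3 on these samples, and all 7 had a log2 fold change above 0 between CPIP+EA and CPIP, from 0.28 to 1.13. Since that choice was made on the same libraries, this direction is not independent evidence. The study also measured Ccl3, Ccl9 and Pf4 by qPCR, in more rats per group than were sequenced. It reported each of these genes as significantly higher after EA than in CPIP. Whether the sequenced rats were among those measured by qPCR is not given in the paper, and the qPCR values were not analysed here. Without CPIP+EA library 3 the difference was 0.96 for Ccl3, 0.90 for Ccl9 and 0.51 for Ccl24, but 0.05 for Pf4, 0.08 for Ppbp, -0.07 for Cxcr2 and, with no limit on low values, -0.02 for Ccr3.

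Of the receptors, 16 of 22 were tested, with log2 fold changes of -0.39 to 0.54 between CPIP and Sham, 8 above and 8 below 0. Cx3cr1, the fractalkine receptor of monocytes and resident macrophages, was at 2.74, 1.96 and 2.37 FPKM in Sham, 3.26, 3.39 and 4.27 FPKM in CPIP and 4.17, 3.26 and 3.90 FPKM in CPIP+EA. All 6 libraries of the CPIP and CPIP+EA groups were above all Sham libraries. Cx3cr1 had a log2 fold change of 0.54 ± 0.15 between CPIP and Sham (SE, n = 3 per group; limma adjusted p = 0.219), 0.59 ± 0.15 between CPIP+EA and Sham (adjusted p = 0.117) and 0.05 between CPIP+EA and CPIP. Its ligand Cx3cl1, made by neurons and endothelium, was at 1.45, 1.16 and 1.52 FPKM in Sham, 1.38, 1.67 and 1.60 FPKM in CPIP and 1.84, 1.15 and 1.41 FPKM in CPIP+EA, with the groups overlapping.

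Beside Cx3cr1, Ccl2 and Cxcl16, the sum of 12 macrophage markers, all tested and none called, was 377.1 to 485.8 FPKM in Sham, 443.2 to 664.4 FPKM in CPIP and 453.9 to 973.7 FPKM in CPIP+EA. Lyz2 alone made up 221.2 to 673.2 FPKM of it, and library 3 was the highest in CPIP+EA. The markers' median log2 fold change of CPIP against Sham was 0.25, from -0.49 (Cd163) to 0.45 (Cd68). Only Cd163 and Mrc1 were below 0. For CPIP+EA against Sham the median was 0.40, with 2 of 12 at an unadjusted limma p under 0.05. The part of these markers in the values of the 3 genes was not tested. Ccr1, a receptor of monocytes and neutrophils, stayed within overlapping ranges, at 0.99 to 1.69 FPKM in Sham, 1.28 to 1.43 FPKM in CPIP and 1.07 to 1.64 FPKM in CPIP+EA.

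Among the other receptors carried by lymphocytes, Cxcr3, Cxcr6, Ccr7 and Ccr9 had overall means of 0.14 to 0.16 FPKM, and Ccr4 and Ccr8 had 0.0033 and 0.017 FPKM. T cell markers, 8 in all with 7 tested and none called, summed to 2.20 to 3.51 FPKM per library. Xcl1, a T and NK cell chemokine, was at 0.19, 0 and 0.20 FPKM in Sham, 0.39, 0.20 and 1.56 FPKM in CPIP and 0.58, 1.74 and 0.59 FPKM in CPIP+EA. All CPIP+EA libraries were above all Sham libraries, with a log2 fold change of 1.15 ± 0.42 (SE, n = 3 per group; limma adjusted p = 0.302), which was 2.21 with 0.1 and 0.76 with 1 added before the logarithm. If 1 read is worth 0.194 FPKM, as all 8 values above 0 allow within the same tolerance, Sham held about 1, 0 and 1 reads of Xcl1 and CPIP+EA about 3, 9 and 3. Its receptor Xcr1, a marker of cross-presenting dendritic cells, was at 0.04 to 0.13 FPKM.

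The 4 atypical receptors were all tested, and each had a log2 fold change below 0 in all 3 comparisons, which share libraries. Ackr1 (the Duffy antigen receptor), known from venular endothelium and red cells, was the most abundant receptor, at 30.46, 29.35 and 27.91 FPKM in Sham, 25.88, 26.00 and 23.77 FPKM in CPIP and 25.34, 20.66 and 20.88 FPKM in CPIP+EA. Every library of the CPIP and CPIP+EA groups was below every Sham library. Ackr1 had a log2 fold change of -0.21 ± 0.09 between CPIP and Sham (SE, n = 3 per group; limma adjusted p = 0.517) and -0.39 ± 0.09 between CPIP+EA and Sham (95% interval -0.58 to -0.20; adjusted p = 0.0721), the smallest adjusted p of any member. The sum of 8 endothelial markers, all tested and none called, was 63.5 to 91.3 FPKM in Sham, 73.3 to 84.8 FPKM in CPIP and 66.4 to 92.7 FPKM in CPIP+EA. Their log2 fold changes ran from -0.48 (Vwf) to 0.23 (Cldn5) between CPIP+EA and Sham, with a median of -0.14, and from -0.49 (Vwf) to 0.11 (Pecam1) between CPIP+EA and CPIP, with a median of -0.06. The part of these markers and of the erythroid genes in the Ackr1 values was not tested.

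Ackr4, which takes up Ccl19, Ccl21 and Ccl25, was at 0.86, 0.83 and 0.96 FPKM in Sham, 0.84, 0.43 and 0.45 FPKM in CPIP and 0.38, 0.45 and 0.76 FPKM in CPIP+EA. All CPIP+EA libraries were below all Sham libraries, with a log2 fold change of -0.44 ± 0.18 (SE, n = 3 per group; limma adjusted p = 0.374). Ackr4 overlaps Acad11 (mean 3.94 FPKM) in the RefSeq list, so its level is uncertain. Ackr2, which degrades inflammatory CC chemokines, had group means of 0.30 ± 0.10 FPKM in Sham, 0.22 ± 0.12 FPKM in CPIP and 0.16 ± 0.10 FPKM in CPIP+EA (SD, n = 3).

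Several ligands made mainly by stromal cells, together with Ackr3, had their highest CPIP+EA value in library 3, with libraries 1 and 2 well below it. This group was picked after the values were seen. The same held for Pf4, Ppbp, Cxcl13 and Cxcr2, given above, so it was not particular to ligands of stromal cells. Ccl21, which with Ccl19 guides Ccr7-bearing cells to lymphatics, was at 7.43, 4.42 and 9.72 FPKM in Sham, 5.15, 10.41 and 3.21 FPKM in CPIP and 1.66, 3.19 and 11.91 FPKM in CPIP+EA. Ccl19 was at 0.79, 0.44 and 1.07 FPKM in Sham, 0.79, 0.80 and 1.42 FPKM in CPIP and 0.26, 0.53 and 1.51 FPKM in CPIP+EA. Their receptor Ccr7 was low, at 0.05 to 0.10 FPKM in Sham, 0.05 to 0.20 FPKM in CPIP and 0.10 to 0.40 FPKM in CPIP+EA. Ccl11 (eotaxin-1), a ligand of Ccr3, was at 1.11, 0.87 and 0.75 FPKM in Sham, 0.81, 1 and 0.71 FPKM in CPIP and 0.43, 0.43 and 1 FPKM in CPIP+EA. Cxcl14, an epithelial and fibroblast chemokine, was at 2.61, 6.05 and 2.89 FPKM in Sham, 1.66, 2.99 and 1.15 FPKM in CPIP and 0.29, 1.40 and 3.24 FPKM in CPIP+EA. In Ccl21, Ccl19, Ccl11 and Cxcl14, CPIP+EA library 3 was more than 2 times as high as library 1 of the same group.

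The fibroblast markers were likewise highest within CPIP+EA in library 3, but this was not particular to them. The sums of endothelial, macrophage, B cell and Schwann cell markers were too, unlike those of sensory neurons, satellite glia and skeletal muscle. Schwann cell markers (7 tested, none called) summed to 4770, 7054 and 9504 FPKM in CPIP+EA libraries 1 to 3. Their median log2 fold change was -0.44 against CPIP and -0.44 against Sham. The sum of 6 fibroblast markers, all tested and none called, was 978.3 to 1311 FPKM in Sham, 835.9 to 1108 FPKM in CPIP and 555.0 to 1109 FPKM in CPIP+EA. Over these markers the median log2 fold change was -0.60 between CPIP+EA and Sham, with 5 of 6 at an unadjusted p under 0.05, and -0.37 between CPIP+EA and CPIP, with 0 of 6. Their part in the values of these members was not tested. Without CPIP+EA library 3, the members with an unadjusted p under 0.05 numbered 8 between CPIP+EA and CPIP and 14 between CPIP+EA and Sham, with 5 and 8 of them lower in CPIP+EA, and still none was called. Over all genes the same share was then 7.27% and 13.8%, against 4.29% and 12.2% with all libraries. The smallest adjusted p was then 0.0684, for Ackr3 against Sham (limma log2 fold change -0.72 ± 0.15, SE, with 2 against 3 libraries). CPIP+EA library 3 was the highest of the 9 libraries for 13 members, 28.9% of those tested that had a single highest library, beside 20.8% of all genes.

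**Figure D5:**
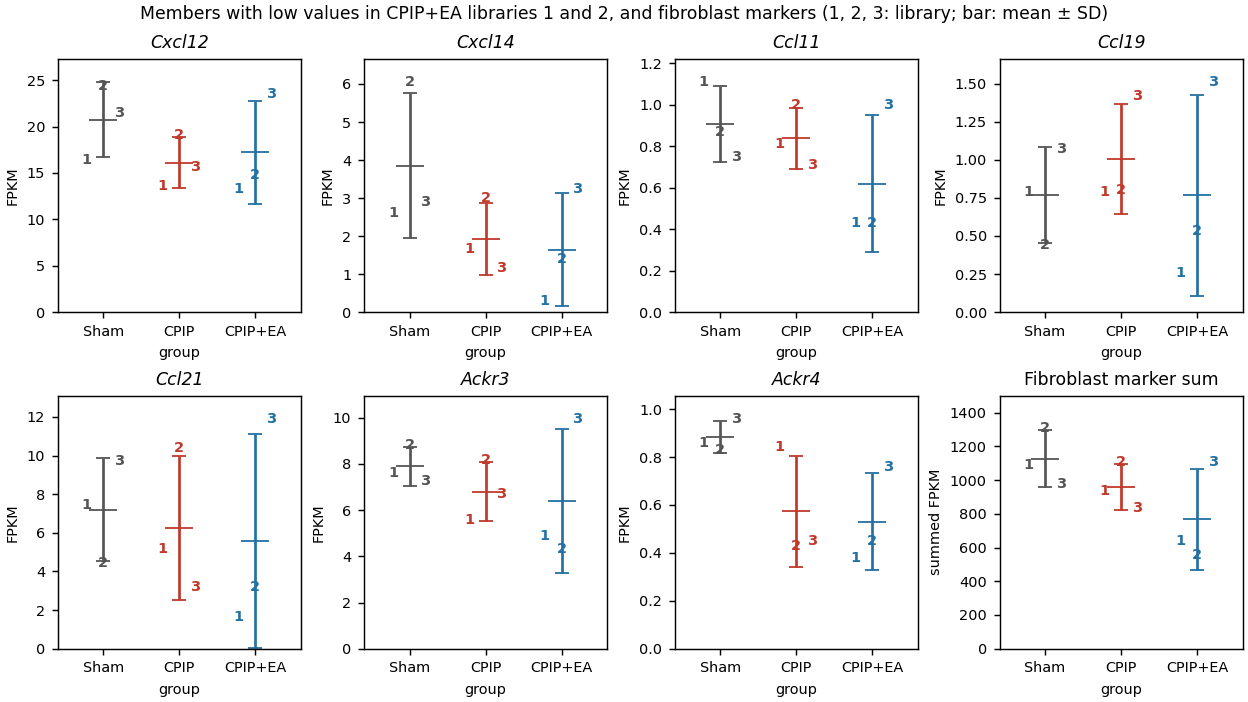
FPKM of 7 members and, at the lower right, the summed FPKM of 6 fibroblast markers, by group, with the numerals 1 to 3 marking the libraries and the bars the mean ± SD (n = 3). In CPIP+EA, library 3 was the highest in every panel, and the fibroblast marker sum ranged from 555.0 to 1109 FPKM.

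Other genes of the pathway were read from 4 lists. Of 36 genes of signalling downstream of chemokine receptors (G proteins, arrestins, kinases), none was called in any comparison, and the median log2 fold change was 0.09 between CPIP and Sham, 0.05 between CPIP+EA and CPIP and 0.11 between CPIP+EA and Sham. Of 14 tested genes of other chemoattractant systems, such as complement and leukotriene receptors, none was called, with medians of 0.06, 0.05 and 0.15. Of 17 genes that cut or present chemokines, only Sdc1 was called, and of 13 tested inducers of chemokine genes, only Csf1. Both rose in CPIP and in CPIP+EA against Sham, beside 0.355% and 0.483% of all genes called.

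Sdc1 (syndecan-1), a heparan sulfate proteoglycan that can hold chemokines at the cell surface, was at 1.63, 1.32 and 1.26 FPKM in Sham, 3.62, 4.00 and 3.84 FPKM in CPIP and 2.94, 3.70 and 3.13 FPKM in CPIP+EA. Its log2 fold change was 1.19 ± 0.12 between CPIP and Sham (SE, n = 3 per group; limma adjusted p = 0.00193) and 0.98 ± 0.12 between CPIP+EA and Sham (adjusted p = 0.00448). Csf1, the growth factor of macrophages, which injured sensory neurons are known to make, was at 6.41, 6.46 and 6.35 FPKM in Sham, 13.30, 14.04 and 13.70 FPKM in CPIP and 13.10, 12.56 and 12.04 FPKM in CPIP+EA. Its log2 fold change was 1.04 ± 0.06 between CPIP and Sham (SE, n = 3 per group; limma adjusted p = 7.13e-05) and 0.92 ± 0.06 between CPIP+EA and Sham (adjusted p = 0.000147). For neither gene did CPIP+EA and CPIP differ by a called amount (adjusted p = 0.996 for each).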

How the data were processed

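RNA-Seq of right L4-6 DRGs was analysed in 9 libraries, 3 each of Sham, CPIP and CPIP+EA, grouped by the sample labels. The authors filtered the single-end reads of 50 bases with SOAPnuke 1.5.2 and deposited FPKM per gene and library with 2 decimals; the aligner, genome build, annotation and strand setting are not given in the sources used here. The authors' log2 ratios, P and Q values per pair of groups stand in the same table and were not used. No read counts were used, so the counting error of each value is unknown. The study lists near-equal totals of clean reads for the 9 libraries, and precision rests on the 3 libraries per group. Libraries summed to 445647 to 482940 FPKM, had 18279 to 18456 genes above 0 and correlated across genes with r of 0.977 to 0.99.

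Log2(FPKM + 0.5) was fitted, for genes averaging 0.1 FPKM or more, with limma 3.58.1 in R 4.3.3 (mean-variance trend, 9 libraries in 1 fit, no covariate, two-sided p, Benjamini-Hochberg over all genes). The script was tested on simulated data. Python 3.11.15, numpy 2.4.6, pandas 2.3.3 and matplotlib 3.10.9 were used for tables and figures. Each p-value sets a difference of group means against the spread within the groups of these 9 rats, estimated with help from all genes.

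Members and lists were chosen with earlier results of these data known. Named genes were members called or with an unadjusted p under 0.05, the 8 most abundant, those the study singled out and their binding partners, and others are said to be chosen after values were seen or are given by range. Promoters, gene order and overlapping genes came from RefSeq (GRCr8), where all 58 members were found. The values of 1 member are not reported here, though it is included in the counts. Alternatives covered the pseudocount, filter, scaling, trend, threshold, replicate block and left-out libraries.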

Additional observations from a re-analysis of the deposited data

How the results depend on the processing

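No member was called under any of 23 alternatives, in any comparison, one of them being an adjusted p under 0.05 with no fold limit over all 9 libraries. Of 21 named differences, recomputed to 473 values, 469 kept their direction and 4 reversed, all between CPIP+EA and CPIP: Cxcr2 was -0.069 without CPIP+EA replicate 3, whether alone, together with Sham replicate 2 or with no filter, and Ccr3 was -0.022 without it and with no filter. The settings that leave out both libraries, or 1 library and the filter, were chosen after seeing the data. The named differences were themselves chosen on these libraries, by p or by the study. Changing only the trend, filter, block, threshold or groups fitted left each log2 fold change as it was. Leaving out a library of the group not compared does the same. The count of kept directions was thus partly fixed in advance and is no measure of robustness. With 1 library left out Cxcr2 was at most 0.684. Another 10 values could not be given, 8 at a mean FPKM of at least 1 and 2 for Ccr3, which falls under the filter without CPIP+EA replicate 3. The count of members with an unadjusted p under 0.05 moved more. With each replicate left out in turn it ran from 4 (without Sham replicate 2) to 9 (without CPIP+EA replicate 3) between CPIP and Sham, from 2 to 8 (without CPIP+EA replicate 3) between CPIP+EA and CPIP, and from 3 (without Sham replicate 2) to 14 (without CPIP+EA replicate 3) between CPIP+EA and Sham. Over all genes the share ran from 6.55% to 10.5%, 2.92% to 7.27% and 9.68% to 13.8%, highest in each comparison without CPIP+EA replicate 3 and lowest without Sham replicate 2 in both comparisons with Sham. The count of members was 4 between CPIP+EA and CPIP without Sham replicate 1, Sham replicate 3 or CPIP replicate 3, 5 without CPIP+EA replicate 1, and 4 between CPIP+EA and Sham without Sham replicate 1. Between CPIP+EA and CPIP it was 5 with no filter, 1 with a mean FPKM of at least 1, 4 on the TPM scale and 4 with only the 2 groups compared, 10 with both libraries left out and 9 with no filter and CPIP+EA replicate 3 left out; between CPIP+EA and Sham it was 4 with a mean FPKM of at least 1, 13 with both libraries left out and 16 with no filter and CPIP+EA replicate 3 left out. Over all genes these settings gave 3.71% to 7.01% and 11% to 13%. A pseudocount of 0.1 or 1 in place of 0.5 moved low genes: between CPIP+EA and CPIP to 1.32 or 0.44 for Ccl9, 1.87 or 0.84 for Ppbp, 0.66 or 0.29 for Cxcr2 and 0.60 or 0.17 for Ccr3, and between CPIP+EA and Sham to 1.23 or 0.32 for Ccl1 and -0.69 or -0.31 for Ackr4. The cause was not tested. The adjusted p of Ackr1 between CPIP+EA and Sham ranged from 0.0198 (without CPIP+EA replicate 1) to 0.294 (with both libraries left out). Same-numbered libraries deviated together with r of -0.236 to 0.297, so the numbers were not taken as pairs. With the replicate number as a block the members at an unadjusted p under 0.05 were 7, 2 and 7, beside 8.26%, 4.05% and 11.9% of all genes. They were in part other members: Ccl7 (CPIP against Sham), Ccl24 (CPIP+EA against CPIP), and Ackr4 and Ccl1 (CPIP+EA against Sham) were then above 0.05. No member was called, and 26, 0 and 42 of all genes were called in place of 61, 0 and 83. FPKM without counts and few reads per gene limit what can be said of Ccl1, Ccl3, Ccl9, Xcl1, Ppbp and Ccr3.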
